A study of Mus musculus with 16 samples.

Results

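Basal cells are the stem cells of the tracheal epithelium. The transcription factor p63, the product of Trp63, is needed to form and keep the basal layer, and the low-affinity neurotrophin receptor encoded by Ngfr is a surface marker by which basal cells are sorted. Basal cells also carry receptor tyrosine kinases for fibroblast growth factors (Fgfr1, Fgfr2 and Fgfr3), a receptor for the signalling lipid lysophosphatidic acid (Lpar3), the mucin-type glycoprotein podoplanin (Pdpn) and the hyaluronan receptor CD44 (Cd44). Other cell types can carry such genes too, and which cells of the cultures held each transcript was not tested. These 8 genes, of 49315 in the count table, are described here across every group of cultured murine tracheal epithelial cells (MTECs). The list was drawn up with results of these data known. Ngfr, Fgfr3 and Lpar3 were chosen by their low counts in the F WT HDM libraries, so for any comparison that holds those libraries their values are given as a description, without a test, and the count of genes called is over the 5 others.

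MTECs were grown from mice on the C57BL/6J background, either WT or LMAN1 KO, which lack the cargo receptor LMAN1 of the early secretory pathway. Primary cells from pooled tracheas were differentiated at an air-liquid interface and were then left untreated (naive) or exposed overnight to 20 µg/ml house dust mite (HDM) extract. The 8 groups are M WT naive, M WT HDM, M KO naive, M KO HDM, F WT naive, F WT HDM, F KO naive and F KO HDM, where M is male and F is female, with 2 libraries each labelled as biological replicates. The comparisons ask how HDM changed the cultures and whether sex or genotype altered that response. Whether the replicates came from separate animals was not given in the sources used here, so the p-values measure only the spread between these libraries, which may be in part technical.

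Levels are given as CPM, the read count of a gene scaled to a common library size, with library sizes adjusted by the trimmed mean of M values (TMM). Library totals ran from 21860698 to 43442188 counts, and all 8 genes passed the filter on low counts, with at least 6 reads in every library. Lman1 did not match the genotype labels in full. It stood at 101 to 144 CPM in the 8 WT libraries and at 12.8 in both F KO naive libraries, but at 14.2 and 63.4 in M KO naive, 65.0 and 66.0 in M KO HDM, and 66.6 and 78.1 in F KO HDM. F KO and M KO therefore stand for the libraries labelled KO, and every genotype difference below is a difference between labels. The F KO response to HDM also sets libraries with Lman1 at 12.8 CPM against libraries at 66.6 and 78.1. In that response, and in the interactions that use it, HDM and the Lman1 level cannot be told apart. The M KO naive libraries differed in Lman1 from each other, and 1 of them differed from M KO HDM. This limit bears on every comparison that uses M KO naive, among them the M KO response and the sex difference in KO naive. The F WT HDM libraries stood apart from the rest, so results that use them and results that do not are given separately. Secretory cell markers moved with both female HDM groups: the 10 club and goblet cell markers summed to 13273 to 17527 CPM in F WT naive, 3768 to 4658 in F WT HDM, 13285 to 16057 in F KO naive and 7241 to 7890 in F KO HDM. Nearly all of this sum was 1 gene, Cyp2f2. It was at 16711 and 12611 CPM in F WT naive, 4645 and 3754 in F WT HDM, 15437 and 12852 in F KO naive, and 7770 and 7145 in F KO HDM. Bulk RNA cannot tell fewer cells of a type from less RNA per cell.

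The cultures held basal cell transcripts in all 16 libraries. None of 14 further basal markers, among them Krt5 and Krt14, was at 3 counts or fewer throughout a group. Their summed level was 10617 to 13255 CPM in M WT naive, 12987 to 14709 in F WT naive, 13456 to 15401 in F KO naive, 5869 to 9028 in F WT HDM and 16017 to 18638 in F KO HDM. The sum was thus lowest in F WT HDM and highest in F KO HDM among the female groups, with no overlap between these groups. Fgfr3 and Lpar3 were called lower in F KO HDM than in F KO naive, so they did not follow this sum there. In the other male groups it was 12411 to 14276 in M WT HDM, 10865 to 12583 in M KO naive and 9250 to 9292 in M KO HDM. M KO HDM thus lay just above the higher F WT HDM library.

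Gene positions are those of GENCODE M21 on GRCm38. Trp63 lies on chromosome 16 (25683763 to 25892102, plus strand), Ngfr on chromosome 11 (95568818 to 95587735, minus), Fgfr1 on chromosome 8 (25513654 to 25575718, plus) and Fgfr2 on chromosome 7 (130162451 to 133123350, minus). Fgfr3 lies on chromosome 5 (33721674 to 33737068, plus), Lpar3 on chromosome 3 (146220963 to 146286186, plus), Pdpn on chromosome 4 (143267431 to 143299564, minus) and Cd44 on chromosome 2 (102811141 to 102901665, minus). All are protein-coding, and a value is the sum over all exons of the gene, so ΔN and TA forms of p63, epithelial and mesenchymal splice forms of the FGF receptors, and CD44 variants were not separated. Exons of Fgfr2 share 314 bases with Ctbp2 on the same strand. Exons of Fgfr1 share 164 bases with the antisense gene Gm16159 and those of Fgfr3 share 998 bases with G630022F23Rik on the other strand, and the strand setting of the counting was not given in the sources used here.

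The start regions of 5 of these genes are shown to set the 4 receptor genes with the lowest F WT HDM counts relative to F WT naive beside Cd44, which moved the other way. Each is the 200 bases from 250 to 51 bases before the RefSeq start (GRCm38.p6), 5′ to 3′ on the gene's strand, with matches on either strand to GGGCGG, the GC box bound by SP1, in capitals.
Ngfr, chr11:95587749-95587948, minus strand: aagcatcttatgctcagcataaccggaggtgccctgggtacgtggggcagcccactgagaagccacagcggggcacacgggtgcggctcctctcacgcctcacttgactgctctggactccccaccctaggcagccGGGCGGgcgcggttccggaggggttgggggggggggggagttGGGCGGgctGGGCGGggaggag
Fgfr3, chr5:33721474-33721673, plus strand: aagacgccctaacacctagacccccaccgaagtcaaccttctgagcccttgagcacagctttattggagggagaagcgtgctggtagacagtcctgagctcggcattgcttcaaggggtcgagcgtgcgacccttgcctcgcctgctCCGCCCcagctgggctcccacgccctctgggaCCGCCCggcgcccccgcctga
Lpar3, chr3:146220711-146220910, plus strand: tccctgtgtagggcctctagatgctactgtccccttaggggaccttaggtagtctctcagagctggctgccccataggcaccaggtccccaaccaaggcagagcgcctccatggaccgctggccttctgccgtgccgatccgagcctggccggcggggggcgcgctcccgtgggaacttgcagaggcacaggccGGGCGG
Fgfr2, chr7:130266859-130267058, minus strand: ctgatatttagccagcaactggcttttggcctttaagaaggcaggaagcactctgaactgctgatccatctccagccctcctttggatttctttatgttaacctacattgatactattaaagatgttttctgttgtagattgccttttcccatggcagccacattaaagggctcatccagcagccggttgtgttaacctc
Cd44, chr2:102901716-102901915, minus strand: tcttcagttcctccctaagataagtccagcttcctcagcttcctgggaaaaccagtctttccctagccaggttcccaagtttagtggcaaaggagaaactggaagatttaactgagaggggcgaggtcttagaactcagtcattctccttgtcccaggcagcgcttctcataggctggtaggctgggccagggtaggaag

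The GC box occurred 3 times upstream of Ngfr, 2 times upstream of Fgfr3 and 1 time upstream of Lpar3, and it was not found in the Fgfr2, Cd44 or Pdpn window. Of 32841 RefSeq windows of the same length, 24.6% held it. The windows of Ngfr, Fgfr3 and Lpar3 were also rich in G and C (70%, 65% and 67.5%), against 44% for Fgfr2, 51.5% for Cd44 and 41.5% for Pdpn. None of the 6 genes with an entry held the AP-1 motif TGANTCA (5.58% of all windows), the TEAD motif GGAATG (10.7%), the Snail and ZEB E-box CACCTG (14.4%), TATAAA (9.14%), the p53 and p63 half-site (5.82%) or the kappaB motif (3.13%), each searched on both strands, and no overlap between motifs arose. A second RefSeq start of Fgfr3 had 2 overlapping GC boxes. The Fgfr3 window lies inside the exon of G630022F23Rik. These matches describe the letters of the windows only. Of the 8 genes 6 matched a RefSeq entry, and windows of Trp63 and Fgfr1 were not used here.

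Across the 14 libraries other than F WT HDM, the level per kb of exon put Pdpn at the top, with a median of 94.9 CPM per kb. Ngfr (36.0), Cd44 (35.6) and Trp63 (27.9) followed, then Fgfr2 (12.9) and Fgfr3 (9.61), and Lpar3 (2.36) and Fgfr1 (2.27) were lowest. In naive cultures Fgfr1 was thus the minor FGF receptor. In the plot of levels by library, both F WT HDM libraries lie outside the range of the other 14 for Trp63, Fgfr1 and Fgfr2, and 1 of 2 does for Cd44. Both also do for Ngfr, Fgfr3 and Lpar3, which were chosen by their low counts there. The share of all genes outside that range was not counted. Of all genes tested, 43.1% were called in the F WT response to HDM.

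**Figure D1:**
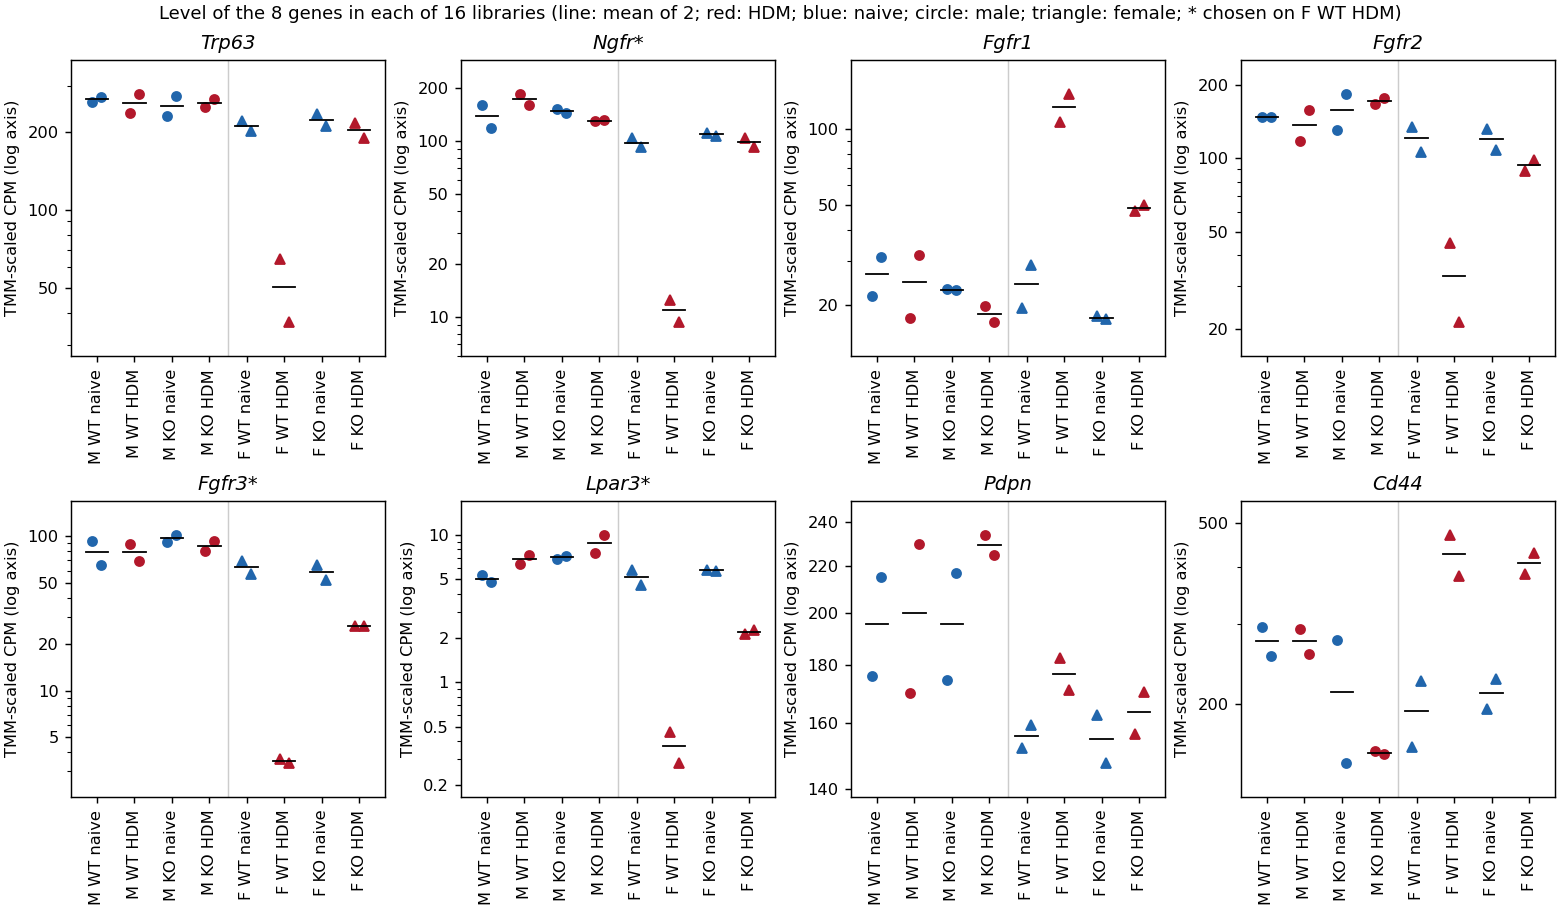
TMM-scaled CPM on a log axis for the 8 genes in each of the 16 libraries, with a line at the mean of the 2 libraries of a group (red, HDM; blue, naive; circles, male; triangles, female; asterisks, genes chosen on F WT HDM). Trp63, Ngfr, Fgfr2, Fgfr3 and Lpar3 sat lowest in F WT HDM and Fgfr1 highest, F KO HDM lay between the naive libraries and F WT HDM for Fgfr1, Fgfr3 and Lpar3, and Cd44 was high in both female HDM groups.

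Trp63, the master regulator of the basal state, fell in F WT cultures under HDM and was not called in the other 3 responses. It was at 219 and 202 CPM in F WT naive and at 64.2 and 36.7 in F WT HDM. The libraries did not overlap, and the log2 fold change was -2.06 (SE 0.20), a 4.17-fold fall, with an adjusted p of 1.66e-05 in edgeR's quasi-likelihood test. In F KO the values were 233 and 211 naive and 217 and 190 under HDM. These overlapped, with a log2 fold change of -0.13 (95% interval -0.55 to 0.30, adjusted p = 0.737), so a fall beyond 0.683 of the naive level lay outside the interval. Males gave 261 and 272 in M WT naive, 235 and 279 in M WT HDM, 230 and 274 in M KO naive, and 249 and 268 in M KO HDM. By mean ± SD (n = 2) the order ran from M WT naive (266 ± 7.50) through the other male groups to F KO naive (222 ± 15.7), F WT naive (211 ± 12.0) and F KO HDM (203 ± 19.2), each overlapping its neighbour, and then to F WT HDM (50.4 ± 19.4), which overlapped none.

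Ngfr, which binds all neurotrophins and their precursors, was not called in F KO under HDM, unlike the other receptor genes chosen with it. It was at 103.5 and 92.2 CPM in F WT naive and at 12.4 and 9.28 in F WT HDM, a described fold of 0.111. F KO naive gave 112 and 107 and F KO HDM 103 and 92.9. These did not overlap, but the log2 fold change was -0.15 (95% interval -0.46 to 0.16, adjusted p = 0.552). Male libraries held 119 to 185, with M WT naive at 161 and 119, M WT HDM at 185 and 161, M KO naive at 151 and 144, and M KO HDM at 129.5 and 132. In order of means, M WT HDM led, M KO naive, M WT naive and M KO HDM followed with overlap, then F KO naive, then F KO HDM and F WT naive with overlap, and F WT HDM was last. All male libraries were above every female library, though edgeR with the filter on low counts called no tested sex difference of Ngfr (adjusted p = 0.209 in WT naive, 0.299 in KO naive and 0.0515 in KO HDM). The Ngfr difference in KO HDM was called by DESeq2 (adjusted p = 0.0246), with upper-quartile scaling (0.0467), with no filter (0.000738), with only the compared libraries (0.00253) and in the fit without F WT HDM (0.0294). Without the filter those in WT naive (4.22e-05) and KO naive (0.000760) were called too.

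Fgfr1, the FGF receptor typical of mesenchymal cells, rose in both female responses. It stood at 19.5 and 29.0 CPM in F WT naive and at 107 and 138 in F WT HDM, a 5.01-fold rise (log2 2.33, SE 0.26, adjusted p = 4.34e-05). In F KO it was at 18.2 and 17.6 naive and at 47.6 and 50.3 under HDM, a 2.74-fold rise (log2 1.45, SE 0.26, adjusted p = 0.00572). The HDM libraries lay above the naive ones in both genotypes without overlap. The F KO call for Fgfr1 was lost without F KO naive replicate 1 (adjusted p = 0.0619) or F KO HDM replicate 2 (0.0509), with the log2 value still 1.41 to 1.49. Males gave 21.9 and 31.2 in M WT naive, 17.9 and 31.8 in M WT HDM, 23.2 and 23.0 in M KO naive, and 19.9 and 17.1 in M KO HDM. In order of means, F WT HDM and then F KO HDM stood clear at the top, M WT naive, M WT HDM, F WT naive and M KO naive overlapped, and M KO HDM and F KO naive, which overlapped, were last.

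Fibroblasts also express Fgfr1. The 12 fibroblast markers summed to 71.4 and 726 CPM in the F WT naive libraries, 170 and 944 in F WT HDM, 174 and 184 in F KO naive, 135 and 157 in F KO HDM, and 34.7 to 232 in males, and all 12 were above 3 counts in at least 1 female library of each group. Of these, 3 were called higher in F WT (Dcn, Lum and Vim) and 0 in F KO by edgeR. Of all genes tested, 20.6% and 4.63% were called higher in these responses. Leaving out each F WT library in turn gave an Fgfr1 log2 fold change of 2.07 to 2.64. These fits do not separate fibroblast RNA from other RNA. The part of fibroblast RNA in the Fgfr1 values of F WT and F KO was not tested.

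Fgfr2, whose epithelial splice form answers FGF7 and FGF10, fell in F WT. It was at 134 and 107 CPM in F WT naive and at 44.9 and 21.3 in F WT HDM, a 3.63-fold fall (log2 -1.86, SE 0.28, adjusted p = 0.000343). Without F WT HDM replicate 1 the value was -2.50, and without replicate 2 it was -1.43, with the call kept. Without F WT HDM replicate 1 the other log2 values of Fgfr2 that use it also grew, to -2.70 between the sexes in WT HDM, 2.14 between the genotypes in F HDM, -2.41 for the interaction by sex in WT and 2.15 for that by genotype in F. F KO naive stood at 131 and 108 and F KO HDM at 88.9 and 98.1. These did not overlap, but the log2 change of -0.35 was not called (95% interval -0.95 to 0.24, adjusted p = 0.454), although with no filter on low counts it was (adjusted p = 0.00589). Males gave 147 and 147 in M WT naive, 117 and 158 in M WT HDM, 131 and 183 in M KO naive, and 167 and 176 in M KO HDM. The means of the 4 male groups, F WT naive and F KO naive formed a chain of overlapping neighbours, with F KO HDM below it and F WT HDM below that.

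Fgfr3, a further FGF receptor kinase, fell in F KO as well. It was chosen by F WT HDM counts, but with results of these data known, so the F KO value is not independent support. It was at 64.9 and 52.0 CPM in F KO naive and at 26.3 in both F KO HDM libraries, a 2.22-fold fall (log2 -1.15, SE 0.18, adjusted p = 0.00298). F WT naive gave 68.8 and 57.2 and F WT HDM 3.62 and 3.41, a described fold of 0.0560. Males held 65.1 to 102, with M WT naive at 93.4 and 65.1, M WT HDM at 88.9 and 68.8, M KO naive at 91.8 and 102, and M KO HDM at 80.0 and 93.2. In order of means, the 4 male groups overlapped in a chain. F WT naive, which overlapped M WT naive, and F KO naive came next, and F KO HDM and then F WT HDM each stood clear.

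Lpar3, a G protein-coupled receptor for lysophosphatidic acid, also fell in F KO, at the lowest counts of the 8. It was at 5.84 and 5.73 CPM in F KO naive and at 2.14 and 2.26 in F KO HDM, a 2.63-fold fall (log2 -1.39, SE 0.20, adjusted p = 0.00211). F WT naive gave 5.78 and 4.59, and F WT HDM 0.458 and 0.284, from 11 and 6 reads, a described fold of 0.0733. Males gave 5.34 and 4.78 in M WT naive, 6.33 and 7.35 in M WT HDM, 6.89 and 7.21 in M KO naive, and 7.53 and 10.0 in M KO HDM. The M WT HDM values lay above the naive ones without overlap, with a log2 change of 0.44 that was not called (adjusted p = 0.936). M KO HDM led the order of means, M KO naive and M WT HDM overlapped, F KO naive, F WT naive and M WT naive overlapped, and F KO HDM and F WT HDM were each clear below.

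Pdpn, the ligand of CLEC2 and a link from the membrane to the actin cortex, had the narrowest range of the 8 as a ratio of highest to lowest library, from 148 to 234 CPM over all 16. F WT naive stood at 152 and 159 and F WT HDM at 182 and 171, and the log2 change of 0.18 was not called (95% interval -0.13 to 0.50, adjusted p = 0.337). F KO naive gave 163 and 148 and F KO HDM 157 and 170 (log2 0.08, adjusted p = 0.794). Males gave 176 and 215 in M WT naive, 170 and 230 in M WT HDM, 174 and 217 in M KO naive, and 234 and 225 in M KO HDM. All neighbours in the order of means overlapped except F WT HDM over F KO HDM. A rise of Pdpn beyond 1.41-fold in F WT, or beyond 1.31-fold in F KO, lay outside the intervals.

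Cd44, which binds hyaluronan and anchors the cell to it, rose in both female responses. It was at 161 and 224 CPM in F WT naive and at 472 and 383 in F WT HDM, a 2.22-fold rise (log2 1.15, SE 0.24, adjusted p = 0.00280). F KO naive gave 195 and 227 and F KO HDM 387 and 431, a 1.94-fold rise (log2 0.95, SE 0.24, adjusted p = 0.0286). The F KO call for Cd44 was lost when any of its 4 libraries was left out (adjusted p 0.0716 to 0.207), with the log2 value still 0.85 to 1.07. M WT libraries held 255 to 296 in both conditions. M KO naive split into 277 and 148, and M KO HDM stood at 157 and 155. Lman1 was at 14.2 and 63.4 CPM in the same M KO naive libraries and at 65.0 and 66.0 in M KO HDM. A link between the 2 genes was not tested. F WT HDM and F KO HDM overlapped at the top of the order of means, and M KO HDM was last, within the range of the M KO naive libraries.

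Set side by side, the responses called 4 of 5 tested genes in F WT, 2 higher and 2 lower. Of all 15993 genes tested, 43.1% were called there (20.6% higher and 22.4% lower). In F KO 4 of 8 were called, 2 higher (Fgfr1 and Cd44) and 2 lower (Fgfr3 and Lpar3), where 10.4% of all genes were called (4.63% higher and 5.77% lower). In M WT and M KO edgeR called 0 of 8 and 0% of all genes, with 1 and 0 of the 8 at an unadjusted p under 0.05 (665 and 857 of all genes), and DESeq2 called 0 of the 8 in both (2 and 1 of all genes). With no filter on low counts edgeR called 1 in M KO, Cd44, at -0.47 (adjusted p = 0.000942), with 705 of all genes called. The responses of F WT and F KO use separate control libraries, and the F KO libraries also differ in Lman1 between naive and HDM. The M KO naive libraries differ in Lman1 from each other, which bears on the M KO response.

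**Figure D2:**
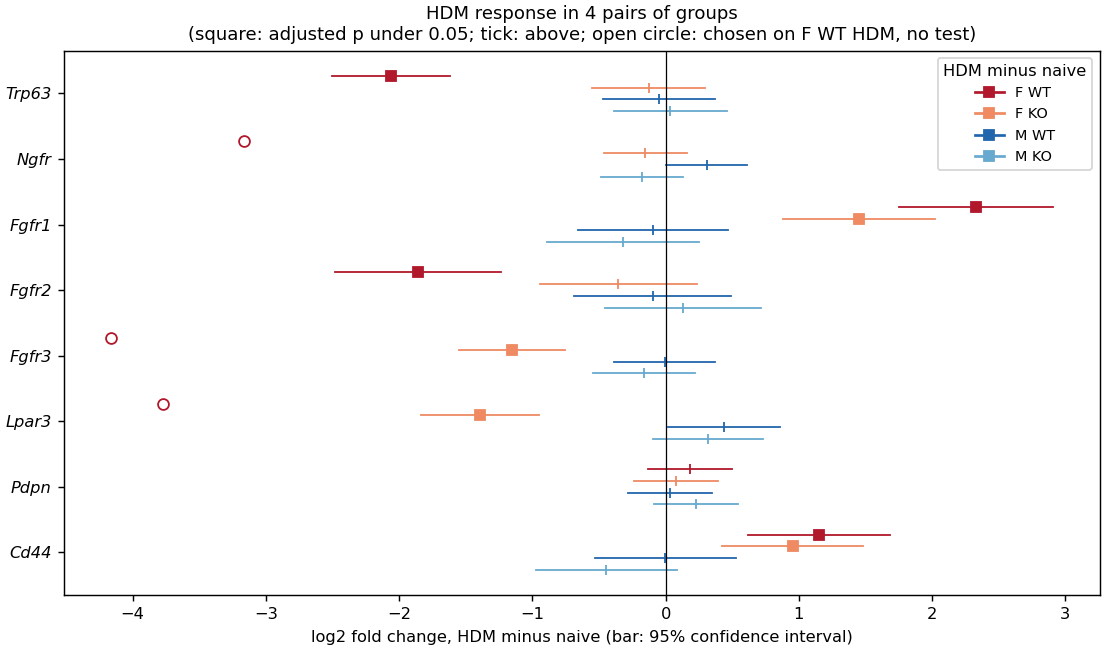
Log2 fold change, HDM minus naive, of the 8 genes in the 4 pairs of groups, with 95% confidence intervals (squares, adjusted p under 0.05; ticks, above it; open circles, genes chosen on F WT HDM, shown without a test). In F KO the intervals of Fgfr1 and Cd44 lie above 0 and those of Fgfr3 and Lpar3 below it, while Trp63, Ngfr, Fgfr2 and Pdpn include it.

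The responses of F WT and F KO differed for Trp63 and Fgfr2. The interaction of HDM by genotype in females, F KO response minus F WT response, was 1.93 for Trp63 (SE 0.28, adjusted p = 0.00227) and 1.50 for Fgfr2 (SE 0.39, adjusted p = 0.0328), 2 of 5 tested genes, with 11.2% of all genes called. The Trp63 call stood when any of the 8 libraries was left out, while that of Fgfr2 was lost in 6 of 8 such fits (adjusted p up to 0.126). The Fgfr1 response was smaller in F KO by 0.87 in log2, with a 95% interval of -1.67 to -0.08 that was not called (adjusted p = 0.139), though it was with no filter (1.80e-05). For Cd44 the difference was -0.19 (95% interval -0.94 to 0.55, adjusted p = 0.750), and for Pdpn it was -0.10 (adjusted p = 0.778). Within the HDM cultures alone, F KO was higher than F WT for Trp63 (4.03-fold, adjusted p = 8.48e-05) and Fgfr2 (2.82-fold, adjusted p = 0.00304) and lower for Fgfr1 (fold 0.401, adjusted p = 0.00337). These were 3 of 5 genes, with 29.2% of all genes called. The described folds of F KO HDM over F WT HDM were 9.00 for Ngfr, 7.47 for Fgfr3 and 5.81 for Lpar3.

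The female and male responses differed too. In WT the interaction of HDM by sex, F minus M, was called for 4 of 5 tested genes, with 24.2% of all genes called: Trp63 (-2.01), Fgfr1 (2.42), Fgfr2 (-1.76) and Cd44 (1.15). In KO it was called for 3 of 8, with 3.56% of all genes called: Fgfr1 (1.77, adjusted p = 0.0262), Lpar3 (-1.71, adjusted p = 0.00973) and Cd44 (1.40, adjusted p = 0.0478). The Fgfr3 difference in KO was -0.99 (95% interval -1.54 to -0.44) and was not called (adjusted p = 0.0526), while 4 alternatives called it (7.96e-09 to 0.0436). Trp63 in KO differed between the sexes by -0.16 (95% interval -0.76 to 0.43) and Ngfr by 0.03 (95% interval -0.41 to 0.46), and neither was called. The KO interactions were fragile: those of Fgfr1 and Cd44 were lost in 7 of 8 fits that left out a library, and that of Lpar3 in 3, without M KO HDM replicate 2, F KO naive replicate 1 or F KO HDM replicate 2.

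Levels under HDM also differed between the sexes. In WT HDM, F was lower than M for Trp63 (5.09-fold) and Fgfr2 (4.14-fold) and higher for Fgfr1 (4.91-fold), 3 of 5 genes with 41.6% of all genes called, and Cd44 was 1.55-fold higher and not called (adjusted p = 0.0533, and 1.02e-07 to 0.0487 in 4 alternatives that called it: DESeq2, upper-quartile scaling, no filter and only the compared libraries). In KO HDM 6 of 8 were called, with 25.3% of all genes called. Fgfr3 (3.29-fold), Lpar3 (3.99-fold), Fgfr2 (1.83-fold) and Pdpn (1.40-fold) were lower in F, and Fgfr1 (2.65-fold) and Cd44 (2.62-fold) were higher. Ngfr (adjusted p = 0.0515) was called in 5 alternatives and Trp63 (adjusted p = 0.214) in 3. The calls of Fgfr2 and Pdpn were lost when any of the 4 libraries was left out (adjusted p 0.104 to 0.158 and 0.0760 to 0.145). Comparisons under HDM share libraries with the HDM responses and are not independent of them.

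No difference of the 8 genes between the sexes or genotypes in naive cultures was called by edgeR with the filter on low counts. In WT naive, 0 of 8 genes were called between sexes, with 0.1% of all genes called and 2 of the 8 at an unadjusted p under 0.05. In KO naive the count was 0 of 8, with 0.188% of all genes called and 3 at an unadjusted p under 0.05. Between genotypes it was 0 of 8 in F naive, M naive and M HDM, with 0% of all genes called and 0, 1 and 2 at an unadjusted p under 0.05. DESeq2 called 1 of the 8 in the sex difference of KO naive (213 of all genes). It called 1 in the genotype difference of M HDM (437 of all genes). In WT naive by sex, F naive and M naive it called 0 of the 8 (171, 1 and 1 of all genes). With no filter edgeR called 4 of the 8 in the sex difference of WT naive (644 of all genes), 4 in that of KO naive (859) and 4 in the genotype difference of M HDM (1896). Cd44 showed the widest of these gaps, a 1.76-fold lower level in M KO HDM than in M WT HDM (95% interval of the log2 value -1.35 to -0.29, adjusted p = 0.176).

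The make-up of the FGF receptors changed with these levels. Per kb of exon, Fgfr1 made up 5.46% to 13.8% of the sum of Fgfr1, Fgfr2 and Fgfr3 in the 12 libraries outside the female HDM groups, 28.2% and 27.9% in F KO HDM, and 69.0% and 84.6% in F WT HDM. The summed level was 15.6 and 16.5 CPM per kb in F WT HDM and 17.1 and 18.3 in F KO HDM, below the 19.5 to 34.3 of all 12 others. In F KO HDM, Fgfr2 kept 50.3% and 52.0% of the sum, while Fgfr3 held 21.5% and 20.1%, against 38.4% and 37.3% in F KO naive. Fgfr3 was chosen on F WT HDM, and the F WT HDM shares are a description.

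**Figure D3:**
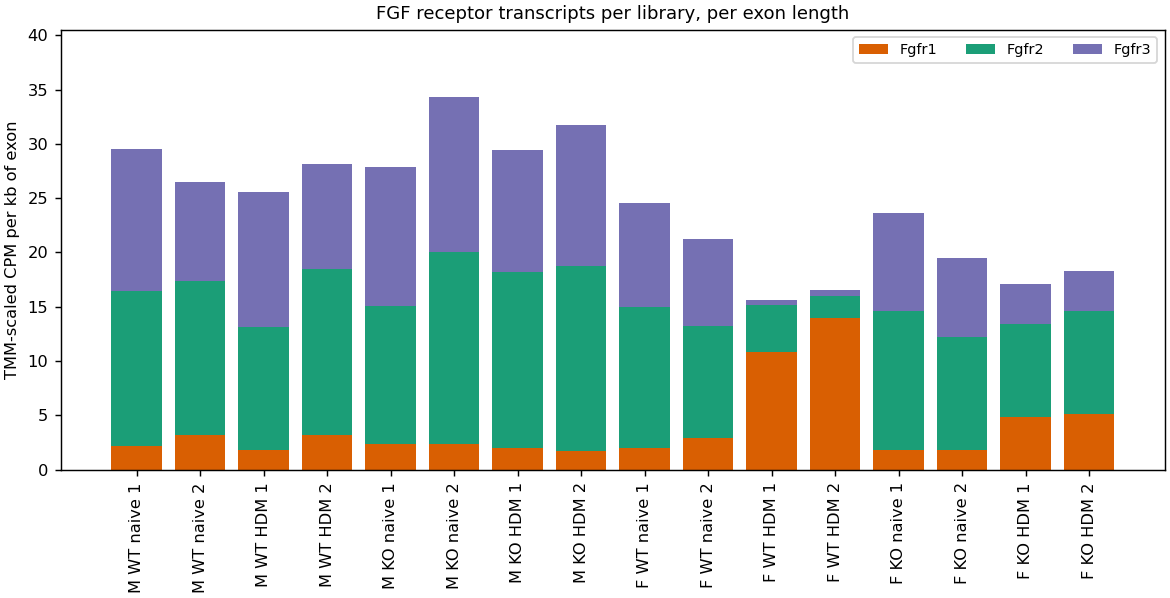
Stacked TMM-scaled CPM per kb of exon for Fgfr1, Fgfr2 and Fgfr3 in each of the 16 libraries. Fgfr1 fills 69.0% and 84.6% of the bar in the F WT HDM libraries and 28.2% and 27.9% in F KO HDM, against at most 13.8% in the other 12.

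Other genes of the basal programme were read from a list of 14 markers. Of all genes tested, 43.1% were called in F WT (20.6% higher and 22.4% lower). In F KO the share was 10.4% (4.63% higher and 5.77% lower). The counts of this list and of each list below stand against these shares, and no list was tested against them. In F WT 2 were called higher and 6 lower, with a median log2 change of -0.55 against -0.02 over all genes. In F KO 3 were called higher and 2 lower, with a median of 0.46. Dapl1 (-3.84 in F WT and -1.52 in F KO) and Dlk2 (-1.94 and -0.77), a relative of the Notch ligands, fell in both. Itgb4 (0.58 and 0.50), the hemidesmosome integrin, and Lamb3 (1.37 and 0.74), a chain of its laminin ligand, rose in both. The defining keratins were named after their values were seen: Krt5 changed by -1.78 in F WT (adjusted p = 0.00152) and by 0.23 in F KO (adjusted p = 0.714), and Krt14 by -0.43 and 0.77, called in neither. Krt15 (-4.63) and the water channel Aqp3 (-4.76), also named after the fact, fell in F WT, and in F KO their values were -0.52 and -0.34, not called. None of the 14 was called in either male response.

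**Figure D4:**
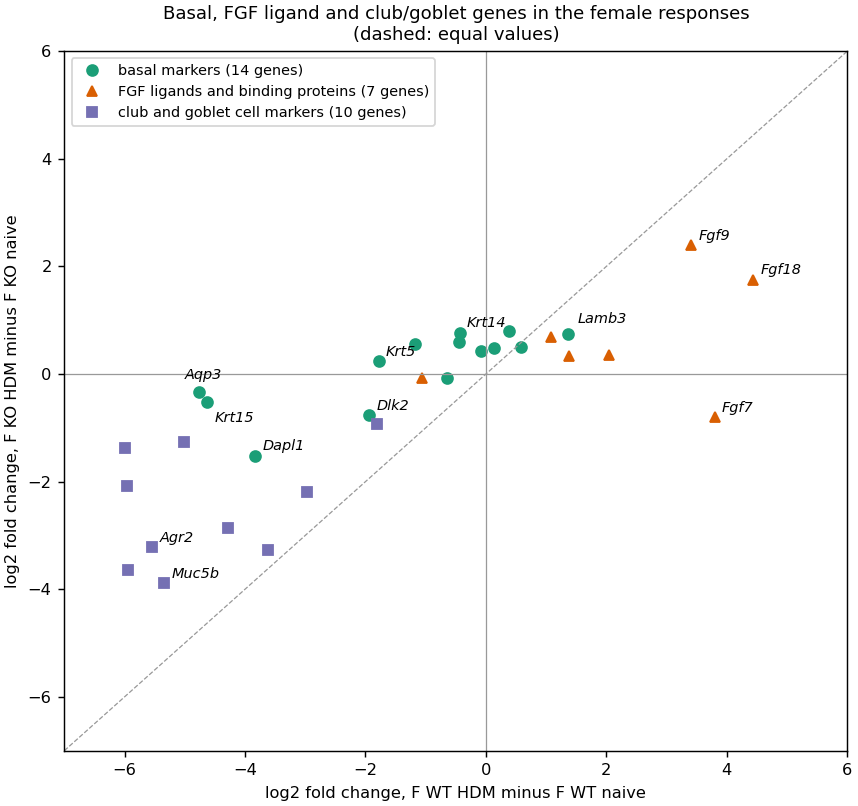
Log2 fold change of listed basal markers (14 genes), FGF ligands and binding proteins (7) and club and goblet cell markers (10) in F KO (vertical) against F WT (horizontal), with a dashed line of equal values. Aqp3 and Krt15 lie at the left near 0 on the vertical axis, while Agr2 and Muc5b are low on both and Fgf9 is high on both.

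The 15 tested genes of the p63 family, its regulators and targets gave 6 higher and 3 lower calls in F WT and 0 in F KO by edgeR, or 2 higher in F KO in the fit of the 14 libraries other than F WT HDM. Trp73, the p63 relative that drives ciliated cell fate, fell in F WT from 5.70 and 5.17 CPM to 0.375 and 0.332 (log2 -3.92, adjusted p = 8.88e-06), and in F KO its value was -0.64 (adjusted p = 0.156). Cdkn1a, a cell cycle inhibitor repressed by p63 (1.20 in F WT, 0.37 in F KO), Trp53 (0.55 and 0.30) and the signalling ligand Bmp7 (0.79 and 0.98) were called higher in F WT and not in F KO (adjusted p 0.0565 for Bmp7). Itch, the ligase that marks p63 for breakdown, was called in neither (-0.26 and 0.10).

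Neurotrophins and their receptors (12 tested) gave 5 higher and 3 lower calls in F WT and 0 higher and 2 lower in F KO. The ligand Bdnf rose in F WT from 4.07 and 4.36 CPM to 14.4 and 30.8 (log2 2.42, adjusted p = 0.000134) and was at 4.02 and 3.81 naive and 4.12 and 4.90 under HDM in F KO (log2 0.21, adjusted p = 0.745). Ntf3 fell in F WT (-2.76, adjusted p = 1.81e-05), with -0.66 in F KO (adjusted p = 0.0968). Ntf5 (0.33) was called higher in F WT. Sort1, the co-receptor of Ngfr for pro-neurotrophins, fell in both females (-1.06 and -0.80, adjusted p = 0.000406 and 0.0115), as did Bex3, an intracellular partner of Ngfr (-0.41 and -0.65). Sorcs2, a further co-receptor, was called in neither (-0.32 and -0.28), while the kinase receptor Ntrk2, at 3.22 CPM or less in the female libraries, was called higher in F WT (2.37), as was the Ngfr binding partner Maged1 (0.26). Ntrk3 stood under 0.3 CPM in the female libraries and was called in neither, and Rtn4r was not called (-0.52 and 0.99).

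FGF ligands and binding proteins (7 tested) were called higher in 5 in F WT and 2 in F KO, with none lower. Fgf1, which binds every FGF receptor, rose from 92.6 and 78.1 CPM to 190 and 170 in F WT (log2 1.08) and from 84.4 and 69.3 to 108 and 139 in F KO (log2 0.69, adjusted p = 0.00811). Fgf9 rose from 0.690 and 0.877 CPM to 6.03 and 10.8 in F WT (log2 3.40) and from 0.513 and 0.248 to 2.14 and 1.93 in F KO (log2 2.40, adjusted p = 0.0109). Fgf18 (4.43 in F WT, 1.75 in F KO with adjusted p = 0.0927), the decoy receptor Fgfrl1 (1.38 and 0.33) and the fibroblast-derived Fgf7 (3.80 and -0.80) were called in F WT and not in F KO. Fgf2 (2.04 and 0.35) and the carrier Fgfbp1 (-1.06 and -0.07) were called in neither. Fgf7 was under 1 CPM in the 4 female naive libraries and at 5.74 and 11.6 in F WT HDM.

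Of 16 genes that carry or restrain FGF signals, 7 were higher and 3 lower in F WT, and 2 were higher and 1 lower in F KO. Il17rd (also known as Sef), a feedback inhibitor, rose in both (0.97 and 1.02), and Spry2, another, fell in both (-0.94 and -0.61). Spry1 (1.95 and 0.62), Spry4 (1.88 and 0.16), Spred3 (1.87 and 0.555), Etv4 (1.83 and 1.04) and Ptpn11 (0.39 and 0.14) were called higher in F WT only. Plcg1 (-0.18 and 0.01) was called lower in F WT only. These genes were named after their values were seen. Sos1, a Ras activator, was called higher in F KO (0.37) with 0.02 in F WT, and the inhibitor Spred1 was called in F WT (0.29) with 0.33 in F KO. The docking protein Frs2, which sits on the receptors, was lower in F WT (-0.41) with 0.09 in F KO, and Frs3 and Grb2 were called in neither.

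In lysophosphatidic acid metabolism and reception (13 tested), 3 genes were higher and 3 lower in F WT, and 1 higher and 1 lower in F KO. Liph, a phospholipase that makes lysophosphatidic acid, fell from 4.32 and 4.59 CPM to 0.208 and 0.379 in F WT (log2 -3.93) and from 4.30 and 5.48 to 1.09 and 1.40 in F KO (log2 -1.97, adjusted p = 0.000946). Lpar2, another receptor, rose in both (0.47 and 0.35), opposite to the direction of Lpar3 in F KO. The downstream Gna13 (-0.23 and 0.13) and Arhgef12 (-0.54 and 0.20) were called lower in F WT and not in F KO. The other genes called higher in F WT, named after their values were seen, were Enpp2, which makes lysophosphatidic acid outside the cell (2.20 and -0.04), and Gna12 (0.47 and 0.03), neither called in F KO.

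Among 16 hyaluronan, CD44 and podoplanin partners, 8 were higher and 4 lower in F WT, and 2 higher and 0 lower in F KO. Mmp14, a membrane protease that cleaves CD44 (1.22 and 0.46), and Hyal1, a hyaluronidase (1.21 and 0.45), rose in both. Moesin (Msn), which ties CD44 and podoplanin to actin, rose in F WT (1.57) with 0.58 in F KO (adjusted p = 0.0842), while its relatives Ezr (0.06 and -0.06) and Rdx (-0.31, called, and -0.01) were not called higher. Spp1, a secreted CD44 ligand, was at 16.9 and 116 CPM in F WT naive and 227 and 1000.5 in F WT HDM (log2 3.19, adjusted p = 0.0298), with 0.66 in F KO (adjusted p = 0.730). Within each F WT group its higher value was in the library with the higher fibroblast sum. Across these groups that order did not hold: Spp1 was at 227 with a fibroblast sum of 170, and at 116 with a sum of 726. Esrp2, a splicing regulator of Fgfr2 and Cd44, fell in F WT (-0.77) and was -0.25 in F KO (adjusted p = 0.0850).

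Markers of other cell types moved beside these genes. All 10 club and goblet markers were lower in F WT and 7 in F KO, with Agr2 (-5.54 and -3.21), Spdef (-4.29 and -2.86), Scgb3a1 (-5.94 and -3.64) and Muc5b (-5.34 and -3.89) the clearest in F KO. Of 9 ciliated markers 5 were lower in F WT and 2 in F KO, Ccno (-4.64 and -2.71) and Rsph1 (-1.96 and -1.51). Tekt1 (-5.26 and -2.93) and Mcidas (-4.32 and -2.52) were called in F WT and not in F KO. Foxj1 (0.06 and -0.86) and Tubb4b (-0.20 and -0.03) were called in neither. The median log2 change of the ciliated markers was -1.75 in F WT, -1.59 in F KO, -0.20 in M WT and -1.16 in M KO, with 0 called in either male response. Of 11 squamous markers 1 was higher and 4 lower in F WT and 0 were called in F KO, where Krt16 was at 1.30 (adjusted p = 0.0580), Sprr1a at -0.43, Sprr3 at -0.62 and Krt6a at 0.78. Of 12 cell cycle genes 1 was lower in F WT and 0 called in F KO. The 8 tested immune markers gave 4 lower calls in F WT and 2 in F KO, Cd68 (-1.32 and -0.97) and Cd14 (-0.59 and -0.47).

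Podoplanin also marks lymphatic endothelium, and Ngfr marks Schwann cells. The 11 markers of endothelial, lymphatic and Schwann cells summed to 20.3 to 22.9 CPM in F WT naive, 104 to 108 in F WT HDM, 20.5 to 22.5 in F KO naive and 42.5 to 45.0 in F KO HDM, with 2 of the 11 at 3 counts or fewer in all libraries. Nearly all of the sum was Flt4, which rose from 15.7 and 18.6 to 102 and 98.4 CPM in F WT (2.54) and from 17.3 and 17.9 to 38.6 and 41.4 in F KO (1.19, adjusted p = 0.000651). Prox1 was called higher in F WT (0.92), at 3.13 CPM or less in the female libraries. The part of these cell types in the levels of the 8 genes was not tested.

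The genes whose pattern over the 16 libraries was most like each of the 8 were taken from 11056 protein-coding candidates by Pearson's r of log2(CPM + 1), as a description. The libraries share 8 groups and F WT HDM weighs on every value, so r over the other 14 libraries stands beside it. Fgfr3 had the closest partners: Cbr2 (r = 0.998, and 0.992 over 14), Bmpr1b (0.994 and 0.964) and Fam83e (0.993 and 0.957). Fgfr2 was nearest to Scnn1a, a subunit of the epithelial sodium channel (0.993 and 0.975), Eps8 (0.990 and 0.925) and Rprd1b (0.990 and 0.932). Ngfr was nearest to Pdzk1ip1 (0.992 and 0.864), Sema4b (0.991 and 0.959) and Pdzd2 (0.986 and 0.867). Lpar3 was nearest to Kif19a (0.987 and 0.959), Herpud1 (0.983 and 0.940) and 5330417C22Rik (0.980 and 0.923).

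The partners of Trp63 depended most on F WT HDM. They were Ppm1l (0.987, and 0.793 over 14), Ttc7 (0.984 and 0.835) and Zfp750 (0.983 and 0.611), the last a known p63 target. Fgfr1 was nearest to Sspn (0.991 and 0.968), Rcn1 (0.981 and 0.927) and Bnip2 (0.981 and 0.935). Cd44 was nearest to the chloride cotransporter Slc12a2 (0.971 and 0.972), Adgre5 (0.968 and 0.960) and Tmtc3 (0.966 and 0.981). Pdpn was nearest to Gprasp1 (0.908 and 0.924), Dnajb9 (0.897 and 0.938) and Prelp (0.886 and 0.895).

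Among the 8 themselves, Trp63 and Fgfr2 had r = 0.970 over 16 libraries and 0.861 over 14, and Fgfr3 and Lpar3 had 0.969 and 0.898. Fgfr1 ran opposite to Fgfr3 (-0.943 and -0.776) and to Lpar3 (-0.950 and -0.814). Trp63 and Fgfr1 had -0.869 over 16 libraries and -0.316 over 14. Pdpn and Trp63 had 0.247 over 16 libraries and 0.798 over 14.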

How the data were processed

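RNA of 16 MTEC cultures was sequenced after mRNA enrichment and random priming. Per the labels and the submitters' processing notes, the authors used Trimmomatic 0.36, STAR 2.5.2b and featureCounts from Subread 1.5.2 on build GRCm38, and deposited raw counts per Ensembl gene, with no normalization. The annotation release and strand setting were not given in the sources used here. Of 49315 identifiers, 49056 matched GENCODE M21, and the unmatched ones held 0.0106% of counts.

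Counts were fitted with edgeR 4.0.16 (R 4.3.3) in 1 model of 8 group means, with TMM scaling, filterByExpr by group (15993 genes) and the quasi-likelihood test, two-sided. P-values were adjusted by Benjamini-Hochberg over all genes tested, and genes were called at an adjusted p under 0.05. Intervals are 95%. The common biological coefficient of variation was 0.142. The 15 comparisons were 4 HDM responses, 4 sex differences, 4 genotype differences and 3 interactions. The code was checked on simulated data. Within every group the 2 libraries differed beyond sampling noise (chi-square per gene 4.73 to 46.5), so each counted as 1 replicate.

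The 8 genes and the 14 context lists were chosen with earlier results of these data known. From each list were named up to 4 genes with the smallest unadjusted p in F KO, plus direct binding partners of the 8 genes; some of these are not reported here. Per-kb values divide by exon length. Alternatives were DESeq2 1.42.0, upper-quartile scaling, no filter, only the compared libraries, a replicate block and each library left out. A crossed block and a fit of the 14 libraries other than F WT HDM were chosen after seeing the data. Figures were drawn with matplotlib 3.10.9.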

Additional observations from a re-analysis of the deposited data

Results flagged for a closer look

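The HDM response differed between groups, by an interaction term of the edgeR fit called at an adjusted p under 0.05, in 9 cases. By sex in WT (F response minus M response) the log2 differences were -2.01 for Trp63 (adjusted p = 0.000492), 2.42 for Fgfr1 (0.000875), -1.76 for Fgfr2 (0.00731) and 1.15 for Cd44 (0.0300). The Cd44 difference in WT was lost in 5 of 8 fits that left out a library (adjusted p up to 0.122), without either M WT HDM library, M WT naive replicate 1, F WT naive replicate 1 or F WT HDM replicate 1.

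By sex in KO they were 1.77 for Fgfr1 (adjusted p = 0.0262), -1.71 for Lpar3 (0.00973) and 1.40 for Cd44 (0.0478). Without M KO naive replicate 2 the calls of Fgfr1 and Cd44 stood, and without any other of the 8 libraries they were lost (adjusted p up to 0.131 and 0.203).

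By genotype in F (F KO response minus F WT response) they were 1.93 for Trp63 (adjusted p = 0.00227) and 1.50 for Fgfr2 (0.0328). The Fgfr2 difference stood without F WT naive replicate 2 or F WT HDM replicate 1 and was lost without any other of the 8 libraries.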

How the results depend on the processing

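With DESeq2, upper-quartile scaling, no filter and only the compared libraries, no called direction reversed, and of the 105 log2 values with a test 100, 102, 85 and 100 stayed on their side of the threshold. DESeq2 called 1 gene in the sex difference of KO naive (Fgfr3, adjusted p = 0.016) and 1 in the genotype difference of M HDM (Cd44, 0.028), against 0. Of all genes it called 213 and 437 there, against 30 and 0 by edgeR. DESeq2 also called 4 genes against 3 in the sex difference of WT HDM (Cd44 added), 7 against 6 in that of KO HDM (Ngfr added) and 4 against 3 in the interaction by sex in KO (Fgfr3 added). Of all genes it called 6537, 4255 and 1131 in these, against 6657, 4050 and 569 by edgeR. With no filter the calls were 1 in the HDM response of M KO, 4 in the sex difference of WT naive, 4 in that of KO naive, 4 in the genotype difference of M HDM, all against 0, and 5 in the interaction by sex in KO against 3. In the same order, the calls over all genes were 705, 644, 859, 1896 and 1977, against 0, 16, 30, 0 and 569 with the filter. The cause was not tested. Leaving out each library in turn gave 2 to 3 calls in the HDM response of F KO, 0 to 3 in the interaction by sex in KO and 1 to 2 in that by genotype in F, where each lone library was assumed to vary like the other groups. With the replicate block the interaction by sex in KO fell to 1 call, Lpar3 (400 of all genes, against 569), and no other count of the 8 genes changed by over 1.5 times. No source says that equal replicate numbers mark a shared culture or day, and the deviations of same-numbered libraries correlated from -0.164 to 0.483. A block with crossed numbers gave 0 calls in the HDM response of M KO and in the sex difference of KO naive. The fit of the 14 libraries other than F WT HDM gave 4 calls in F KO and 8 in the sex difference of KO HDM, against 6. Of all genes it called 1732 and 4109 there, against 1664 and 4050 in the main fit. In F KO it moved the p63 list from 0 to 2 higher calls, the list of FGF signal genes from 2 to 1 higher and the hyaluronan list from 0 to 1 lower. Depth limits Lpar3 most, with 6 and 11 reads in F WT HDM.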
